A study of Mus musculus with 12 samples.

Results

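The genes that make cholesterol and fatty acids were followed in mammary tumors of mice fed retinoid X receptor (RXR) agonists. The set held 32 genes of the 54532 in the deposited tables, found by gene name from a fixed list. Of these, 20 belong to the sterol branch and 12 to the fatty acid branch, and all 32 passed the filter on low counts. The measurements are RNA-seq of 12 tumors of MMTV-Neu mice, in which unactivated Neu (rat Erbb2) is expressed under a mammary tumor virus promoter. In each of 3 groups, 4 tumors were sequenced. Control mice ate powdered chow mixed with the vehicle of ethanol and coconut oil, MSU-42011 mice ate the same chow with 100 mg MSU-42011 per kg diet, and bexarotene mice ate it with 100 mg bexarotene per kg diet. All groups therefore shared the transgene, the chow and the oil, and all were fed for 10 days from the time a tumor reached 4 mm. The ages of the mice are not given in the sources used here.

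Cholesterol synthesis starts from acetyl-CoA, passes through mevalonate and farnesyl pyrophosphate, and commits to sterols when squalene is formed. Fatty acid synthesis uses the same acetyl-CoA, which is carboxylated to malonyl-CoA and extended to palmitate, then elongated and desaturated. The transcription factors SREBP2 (from Srebf2) and SREBP1 (from Srebf1) switch on these genes when membrane sterol is low, and INSIG1 holds them inactive in the endoplasmic reticulum when sterol is plentiful. SREBPs bind short sterol regulatory elements, usually beside sites for the factors NF-Y (CCAAT) and Sp1 (GGGCGG). RXR pairs with other nuclear receptors, among them the liver X receptors, which induce Srebf1, and raised blood lipids are a known side effect of bexarotene. Both agonists bind RXR.

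Promoter windows of 300 bases, running from 250 bases before to 50 bases after the start of the gene, were taken from RefSeq (GRCm38.p6) for 27 of the 32 genes. The letters CCAAT stood, on either strand, in the windows of 24 of these 27 genes, against 42.3% of the tested genes with a window and 37.4% of all windows. In the sterol branch, 16 of 16 genes with a window had CCAAT and 15 of 16 had GGGCGG, which 66.7% of the tested genes had. In the fatty acid branch, 8 of 11 had CCAAT and 5 of 11 had GGGCGG. The sterol regulatory element letters TCACNCCAC stood in 1 of the 27 genes, Hmgcs1, against 1.4% of the tested genes with a window and 1.24% of all windows. Direct repeats of the nuclear receptor core site AGGTCA (a leading G, or a T as the third letter, was also allowed) spaced by 1 or by 4 bases stood, on either strand, in 0 of the 27 genes. They stood in 0.288% and 0.027% of the tested genes with a window, and in 0.222% and 0.0822% of all windows. These matches describe letters in a short window and say nothing of whether a factor is bound. Forms of the sterol element with other letters were not searched for. The windows of Hmgcs1, the gene with the letters TCACNCCAC, and of Insig1, Srebf2 and Fasn, chosen after their values were seen, are printed with CCAAT (or its reverse complement ATTGG) and TCACNCCAC in capitals. In Fasn a CCAAT and an ATTGG overlap, so that they appear as a single run of capitals.
Hmgcs1 (chr13:119690101-119690400, plus strand): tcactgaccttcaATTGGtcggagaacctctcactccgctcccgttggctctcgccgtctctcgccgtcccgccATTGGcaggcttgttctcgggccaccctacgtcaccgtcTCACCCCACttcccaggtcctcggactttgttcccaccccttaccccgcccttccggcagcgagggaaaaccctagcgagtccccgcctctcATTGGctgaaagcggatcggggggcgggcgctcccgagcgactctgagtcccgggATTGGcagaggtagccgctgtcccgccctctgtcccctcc
Insig1 (chr5:28071162-28071461, plus strand): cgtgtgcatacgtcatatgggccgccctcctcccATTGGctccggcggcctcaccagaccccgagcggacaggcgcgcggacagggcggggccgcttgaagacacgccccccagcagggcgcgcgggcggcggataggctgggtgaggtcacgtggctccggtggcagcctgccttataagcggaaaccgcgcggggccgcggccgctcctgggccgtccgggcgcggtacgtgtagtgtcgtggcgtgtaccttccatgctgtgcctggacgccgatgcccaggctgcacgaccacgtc
Srebf2 (chr15:82147019-82147318, plus strand): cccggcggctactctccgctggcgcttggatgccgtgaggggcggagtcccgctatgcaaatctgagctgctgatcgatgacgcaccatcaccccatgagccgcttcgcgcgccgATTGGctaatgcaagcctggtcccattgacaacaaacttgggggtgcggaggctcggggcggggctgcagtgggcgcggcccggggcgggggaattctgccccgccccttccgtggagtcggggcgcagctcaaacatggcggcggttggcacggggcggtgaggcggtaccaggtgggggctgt
Fasn (chr11:120824498-120824797, minus strand): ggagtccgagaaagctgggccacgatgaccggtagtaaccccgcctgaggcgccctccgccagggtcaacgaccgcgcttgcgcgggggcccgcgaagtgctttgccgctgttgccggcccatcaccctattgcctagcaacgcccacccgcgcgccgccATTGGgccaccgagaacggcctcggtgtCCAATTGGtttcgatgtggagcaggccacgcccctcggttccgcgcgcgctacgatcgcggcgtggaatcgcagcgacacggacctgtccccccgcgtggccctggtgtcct

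The tumors held 16583413 to 25925027 counted reads each, with a median of 19342536. Markers of luminal mammary epithelium were present in all 12 tumors, at a summed CPM (read counts scaled to the library's effective total) of 3070 to 6424. Bexarotene replicate 1 stood apart: its median correlation with the other tumors was 0.915, against 0.961 or more for the rest. It had the lowest luminal sum (3070 CPM) and the highest fibroblast sum over 7 of 7 detected markers (10450 CPM, against 150 to 810 CPM in the other bexarotene tumors). Its macrophage sum over 8 of 8 markers was 1581 CPM, against 178 to 492 CPM elsewhere. The adipocyte list, in which only 3 of 10 genes passed the filter, summed to 126 CPM in this tumor and to 30.2 to 52.2 CPM in the other 11. Most of that sum came from Fabp4 (12.1 to 30.6 CPM, and 76.3 CPM in bexarotene replicate 1) and Lipe (14.3 to 24.0 CPM), and in the same tumor Plin4 reached 11.6 CPM. Adipoq and Plin1, which are largely restricted to fat cells, lay between 0 and 2.32 CPM in every tumor. In the skeletal muscle list, 3 of 6 genes passed the filter. This list summed to 250 CPM in bexarotene replicate 1 and to 123 CPM in control replicate 1. The other tumors were far lower, and the medians of the 3 groups were 1.77 to 2.64 CPM. Control replicate 1 also had the highest macrophage (466 CPM), fibroblast (422 CPM) and endothelium (131 CPM) sums of the controls. The part of these differences in its sterol gene levels was not tested. In bulk tumor RNA, fewer cells of a type and less RNA per cell cannot be told apart. The study fed 4 mice per group, and the labels number the tumors but not the mice, so p-values measure the spread between these tumors.

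FPKM divide counts by a fixed length per gene, which was a differing share of the annotated exon bases. It was 3578 of 10947 bases for Fasn, 3407 of 17074 for Acaca and 1794 of 1859 for Mvd. The order of genes by FPKM depends on these lengths. By FPKM, the highest means belonged to fatty acid genes. Others of that branch were low, with Elovl6, Fads1, Acss2 and Acacb at rank 21, 23, 27 and 31 of the 32 genes. Me1, the malic enzyme that supplies NADPH, had the highest mean at 257 ± 47.1 FPKM (SD, n = 12), followed by Fasn, the fatty acid synthase, at 148 ± 48.1 FPKM. Elovl5, an elongase of polyunsaturated fatty acids, reached 121 ± 22.2 FPKM and Acly, which makes cytosolic acetyl-CoA from citrate, 104 ± 21.01 FPKM. Thrsp came next at 99.0 ± 45.1 FPKM. Neighbors in this order overlapped in range. The most abundant sterol genes were Srebf2 (97.6 ± 19.5 FPKM), Dhcr7, the reductase of the last step to cholesterol (96.4 ± 23.9 FPKM), and Ebp, a sterol isomerase (84.5 ± 10.9 FPKM). Insig1 averaged 48.1 FPKM, and the other sterol genes apart from Fdps lay between 10.6 and 33.4 FPKM. Acacb, the mitochondrial acetyl-CoA carboxylase, averaged 3.32 FPKM, below Acaca, its cytosolic form, at 29.5 FPKM. Fdps, the farnesyl pyrophosphate synthase, was lowest at 1.72 FPKM with 479 reads over all 12 tumors. It shares 1124 exon bases (26.7% of its own) with the annotated gene Gm43738 on the same strand, so its count is uncertain, and reads lost to near-identical copies elsewhere were not tested for.

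**Figure D1:**
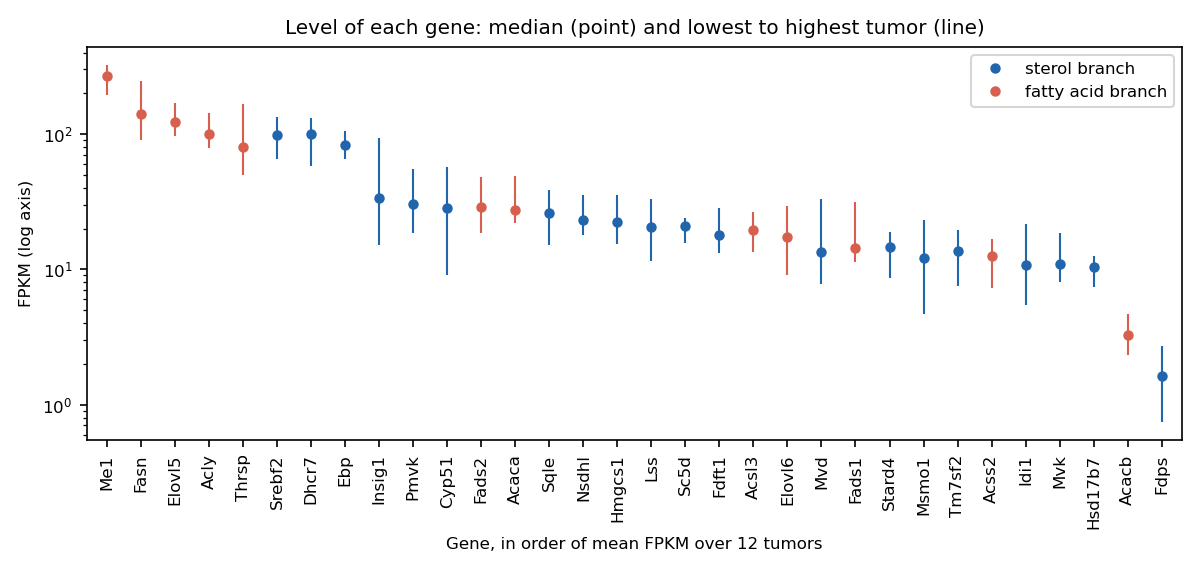
FPKM of the 32 genes on a log axis, in order of mean level, with the median of 12 tumors as a point and a line from the lowest to the highest tumor. Me1, Fasn, Elovl5, Acly and Thrsp (red, fatty acid branch) lead, Srebf2, Dhcr7 and Ebp (blue, sterol branch) follow, and Acacb and Fdps are the lowest.

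Tumors of the same diet differed widely in the sterol genes. On the log2(CPM + 0.5) scale, relative to the control mean, the median of the 20 sterol genes was -0.27, -0.44, 0.71 and 0.070 in control replicates 1 to 4. It was 0.058, 0.29, -0.12 and -0.0097 in MSU-42011 replicates 1 to 4, and -0.13, 0.37, 0.30 and 0.55 in bexarotene replicates 1 to 4. The mean of these medians was 0.016 ± 0.51 (SD, n = 4) in controls, 0.053 ± 0.17 with MSU-42011 and 0.27 ± 0.29 with bexarotene, so the spread among the controls exceeded the differences between diets. The control group held both the lowest tumor (replicate 2) and the highest tumor (replicate 3) of the experiment. In control replicates 1 and 2, 1 of 20 sterol genes was above its median over the 12 tumors, while in control replicate 3 it was 19 of 20. In bexarotene replicates 2, 3 and 4 the number above was 18, 14 and 20, and in bexarotene replicate 1 it was 5. In the MSU-42011 tumors it was 8, 15, 4 and 6.

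Control replicate 3 had the lowest macrophage sum of all tumors (178 CPM) and the lowest luminal sum (5019 CPM) and highest proliferation marker sum (438 CPM) of the controls. The part of these differences in its sterol gene levels was not tested. The fatty acid genes had medians of -0.17, -0.18, 0.24 and 0.049 in the controls, 0.18, 0.13, 0.14 and 0.21 with MSU-42011, and -0.29, 0.16, 0.17 and 0.61 with bexarotene. The SD of these medians was below that of the sterol medians in controls (0.20) and with MSU-42011 (0.034), but above it with bexarotene (0.37). All 4 MSU-42011 tumors lay above 3 of the 4 control tumors in this median, while the bexarotene tumors spread below and above the control range. The standard deviation within groups had a median of 0.384 over sterol genes and 0.370 over fatty acid genes, against 0.289 over the 15504 genes tested (log2 scale). It was largest for Insig1 (0.81), Cyp51 (0.74) and Thrsp (0.72).

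**Figure D2:**
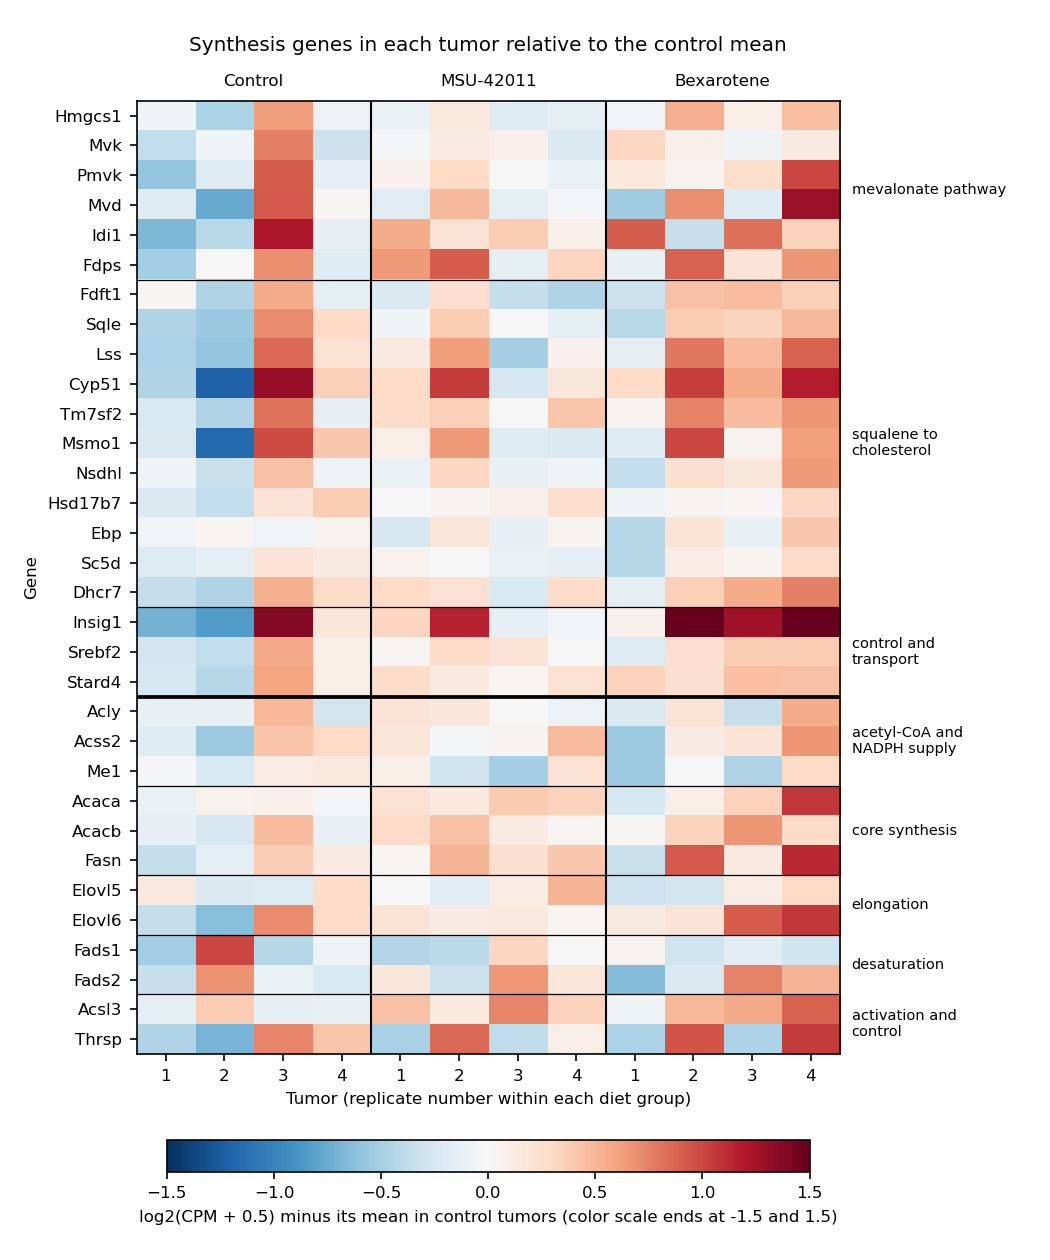
Each gene (rows, ordered by role, sterol branch above the thick line) in each tumor (columns), as log2(CPM + 0.5) minus its mean in the control tumors, red higher and blue lower. Control replicate 3 and bexarotene replicates 2 and 4 are red over most sterol genes, control replicates 1 and 2 are blue, and the MSU-42011 columns are paler apart from replicate 2.

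Among the mevalonate enzymes, Hmgcs1, which condenses acetyl-CoA units to HMG-CoA, was at 47.5, 35.8, 77.2 and 47.1 CPM in control tumors. It was at 46.4, 55.7, 43.6 and 45.1 CPM with MSU-42011 and at 48.6, 72.9, 53.3 and 68.5 CPM with bexarotene. All bexarotene tumors lay above 3 of the 4 controls, but control replicate 3 was the highest of the 12. Mvd, the decarboxylase that yields isopentenyl pyrophosphate, had the largest standard deviation within the 3 groups of the mevalonate genes (0.65 on the log2 scale, followed by Idi1 at 0.60). It was at 22.3, 14.7, 48.1 and 25.7 CPM in controls, 22.6, 35.7, 22.7 and 24.9 CPM with MSU-42011, and 17.3, 41.4, 22.0 and 62.7 CPM with bexarotene. Pmvk, the phosphomevalonate kinase, was at 18.9, 25.0, 54.1 and 26.3 CPM in controls, 29.9, 35.4, 28.7 and 26.7 CPM with MSU-42011, and 32.1, 29.8, 34.5 and 57.9 CPM with bexarotene. Control replicate 3 lay between the bexarotene tumors and the other 3 controls lay below all of them. Mvk and Idi1 were highest in control replicate 3, at 24.0 and 25.1 CPM, and lowest in control replicate 1, at 10.7 and 6.47 CPM.

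From squalene onward, Sqle, the epoxidase that is a rate-limiting step of sterol synthesis, was at 47.5, 43.9, 107 and 80.1 CPM in controls. It was at 62.4, 85.2, 65.4 and 58.6 CPM with MSU-42011 and at 48.5, 85.2, 82.0 and 91.3 CPM with bexarotene. Fdft1, the squalene synthase, was at 39.5, 28.2, 57.6 and 35.5 CPM in controls, 33.3, 46.3, 30.2 and 28.3 CPM with MSU-42011, and 31.1, 52.9, 53.8 and 49.8 CPM with bexarotene. In both genes bexarotene replicate 1 was the low tumor of its group and the other 3 clustered tightly. Fdft1 shares 774 exon bases with the abundant cathepsin gene Ctsb on the opposite strand, and no source used here gives the strand setting of the counting. Lss, which closes the ring to lanosterol, was at 36.3, 33.4, 91.4 and 59.3 CPM in controls, 55.8, 78.3, 35.7 and 53.2 CPM with MSU-42011, and 45.9, 88.0, 70.7 and 93.7 CPM with bexarotene. Cyp51, the lanosterol demethylase, spanned a 5.93-fold range over the 12 tumors, from 14.1 CPM in control replicate 2 to 83.6 CPM in control replicate 3, so that the controls contained both ends. Msmo1, the methyl sterol oxidase that follows it, spanned 4.70-fold. The late enzymes Hsd17b7, Ebp and Sc5d were steadier, each within a range of 1.77-fold or less. Tm7sf2, a sterol reductase, was at 9.97, 8.47, 21.01 and 10.7 CPM in controls, 14.3, 15.3, 11.8 and 15.9 CPM with MSU-42011, and 12.1, 20.1, 16.5 and 18.9 CPM with bexarotene. It shares 532 exon bases with Vps51 in GENCODE M21, whose coordinates for Tm7sf2 differ from the deposited ones.

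Insig1, whose protein holds SREBPs in the endoplasmic reticulum and which is itself an SREBP target, had the widest spread within groups. It was at 30.1, 27.5, 130 and 55.6 CPM in controls, 61.9, 111, 45.0 and 48.3 CPM with MSU-42011, and 51.7, 161, 120 and 156 CPM with bexarotene. Bexarotene replicates 2, 3 and 4 exceeded every MSU-42011 tumor and 3 of the 4 controls, and replicates 2 and 4 exceeded control replicate 3 as well. Srebf2 was at 165, 156, 298 and 214 CPM in controls, 203, 243, 231 and 202 CPM with MSU-42011, and 174, 239, 262 and 262 CPM with bexarotene. Stard4, which carries cholesterol between membranes, was at 19.5, 17.2, 35.7 and 25.0 CPM in controls, 28.4, 25.9, 23.9 and 27.6 CPM with MSU-42011, and 29.8, 27.9, 32.3 and 31.8 CPM with bexarotene. For Stard4 the bexarotene tumors were close together, above 3 of the 4 controls and below control replicate 3.

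In the fatty acid branch, the suppliers of acetyl-CoA and NADPH varied little by diet. Acly was at 220, 221, 335 and 196 CPM in controls, 274, 268, 236 and 225 CPM with MSU-42011, and 204, 275, 186 and 350 CPM with bexarotene. Acss2, which makes acetyl-CoA from acetate, and Me1 overlapped in the same way, each with its lowest value of the 12 in bexarotene replicate 1 and its highest in bexarotene replicate 4. Acaca, which makes malonyl-CoA and is the committed step, was at 79.6, 88.8, 90.5 and 84.0 CPM in controls and at 101, 94.7, 112 and 109 CPM with MSU-42011. Every MSU-42011 tumor was above every control for this gene. With bexarotene Acaca was at 71.2, 91.8, 109 and 179 CPM, from below the controls to far above them. Fasn was at 332, 388, 551 and 464 CPM in controls, 434, 608, 505 and 563 CPM with MSU-42011, and 337, 810, 467 and 933 CPM with bexarotene. The 2 highest Fasn tumors were bexarotene replicates 2 and 4, and bexarotene replicate 1 was near the lowest control.

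Elovl6, which extends palmitate to stearate, was at 27.9, 22.9, 59.3 and 44.0 CPM in controls, 41.7, 39.3, 40.0 and 36.8 CPM with MSU-42011, and 39.4, 41.2, 68.0 and 75.3 CPM with bexarotene. The MSU-42011 tumors were tightly grouped inside the control range. Fads1 and Fads2 encode desaturases of polyunsaturated fatty acids. Among the controls Fads1 was highest in replicate 2 (115 CPM, against 39.6 to 54.5 CPM in the other controls), the tumor in which most sterol genes were lowest. Fads2 was at 32.9, 67.0, 39.1 and 35.8 CPM in controls, 47.3, 33.4, 66.1 and 47.6 CPM with MSU-42011, and 26.6, 36.1, 70.3 and 59.9 CPM with bexarotene. Acsl3, an acyl-CoA synthetase of lipid droplets, was at 23.4, 33.9, 23.9 and 24.1 CPM in controls, 35.6, 28.8, 43.6 and 33.2 CPM with MSU-42011, and 25.1, 37.0, 38.8 and 48.4 CPM with bexarotene. Control replicate 2 was the sole control in the range of the treated tumors. Thrsp, a nuclear protein that promotes lipogenesis, was at 82.8, 69.4, 188 and 151 CPM in controls, 80.3, 204, 87.0 and 120 CPM with MSU-42011, and 81.2, 218, 81.7 and 235 CPM with bexarotene. Its highest tumors were bexarotene replicates 4 and 2 and MSU-42011 replicate 2, and the groups overlapped.

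**Figure D3:**
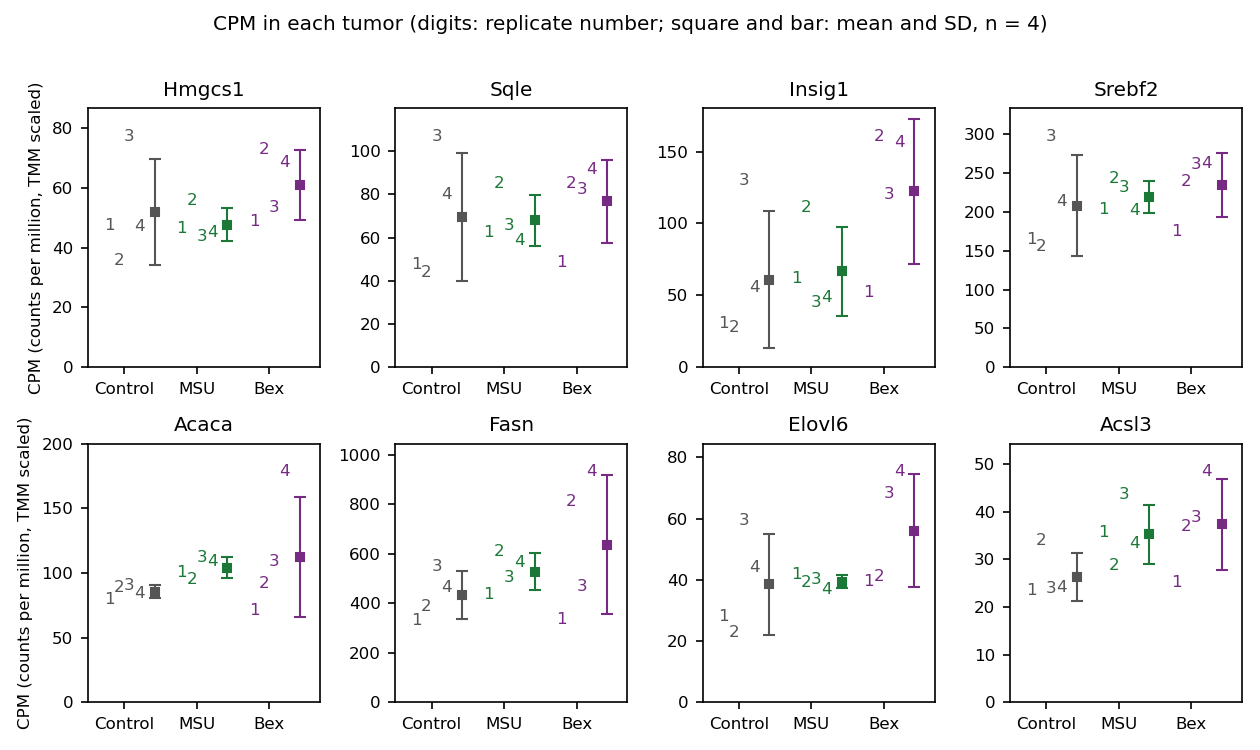
CPM of 8 genes in each tumor, with digits giving the replicate number and a square with a bar for the mean and SD of 4 tumors; MSU and Bex are MSU-42011 and bexarotene. Control replicate 3 is the highest control for the sterol genes in the upper row, and all 4 MSU-42011 tumors exceed the controls for Acaca.

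The comparisons asked how each agonist altered these genes. Relative to control tumors, tumors from mice fed MSU-42011 had sterol genes on both sides of the control level. Of 20 sterol genes, 10 were higher and 10 lower, with a median log2 fold change of 0.0035 and a range of -0.22 to 0.51, against 50.3% of all genes tested higher and a median of 0.0016. In the fatty acid branch 10 of 12 genes were higher, with a median of 0.13. In the edgeR test across 15504 genes, 0 genes passed an adjusted p of 0.05 (0% of genes tested), and 309 (1.99%) had an unadjusted p under 0.05, none of them among the 32 genes. The largest sterol value was Fdps (0.51 ± 0.42 SE, adjusted p = 1.00, the uncertain gene), followed in size by Fdft1 (-0.22 ± 0.24 SE). Hmgcs1 differed by -0.12 (95% confidence interval -0.58 to 0.34) and Sqle by -0.036 (-0.64 to 0.57). Acsl3 had the smallest edgeR p of the set (0.42 ± 0.20 SE, p = 0.0566, adjusted p = 1.00, exact permutation p = 0.0857). For Acaca the groups did not overlap, as for 1.97% of all genes tested. Its log2 fold change was 0.28 (95% confidence interval -0.19 to 0.75), with an edgeR p of 0.219, an adjusted p of 1.00 and a two-sided exact permutation p of 0.0286, the smallest that 4 against 4 tumors can give. Fasn differed by 0.28 (-0.33 to 0.90). The even split of the sterol genes rested on single control tumors, in both directions. Without control replicate 1, 3 of 20 sterol genes were higher with MSU-42011 (median -0.089), and without control replicate 2 it was 2 of 20 (median -0.11). Without MSU-42011 replicate 2, 7 of 20 were higher (median -0.13). Without control replicate 3, 19 of 20 were higher, the median was 0.31, and Tm7sf2, Stard4 and Idi1 had an edgeR p under 0.05 (1.59% of the genes tested were higher with such a p), each with an adjusted p of 1.00. Leaving out control replicate 1 lowered the fatty acid median to 0.051, leaving out MSU-42011 replicate 4 to 0.078, and leaving out control replicate 3 raised it to 0.28.

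Relative to control tumors, tumors from mice fed bexarotene had higher mean levels of all 20 sterol genes, with log2 fold changes of 0.013 to 1.01 and a median of 0.28, where 55.3% of all genes tested were higher and their median was 0.030. The differences did not exceed the spread between tumors in the test: 0 sterol genes had an edgeR p under 0.05, as 6.44% of the tested genes did, and 0 genes of the 15504 passed an adjusted p of 0.05 (0%). Both agonist groups were compared with the same 4 control tumors. Insig1 had the largest value, at 1.01 ± 0.51 SE (95% confidence interval -0.093 to 2.11, edgeR p = 0.0695, adjusted p = 0.804), and the exact permutation p was 0.143. Cyp51 followed at 0.52 ± 0.46 SE, Fdps at 0.49 ± 0.42 SE, Lss at 0.44 ± 0.34 SE and Tm7sf2 at 0.43 ± 0.27 SE. Dhcr7 was at 0.36 ± 0.24 SE and Stard4 at 0.32 ± 0.19 SE. Hmgcs1 (0.23, -0.23 to 0.69), Srebf2 (0.17, -0.26 to 0.61) and Sqle (0.14, -0.47 to 0.75) had intervals that included 0, as did those of all 20 sterol genes. No member had groups that did not overlap, as 2.03% of all genes did. Markers of other cell types differed in the same comparison. All 7 fibroblast markers were higher (median 3.78, 6 with an edgeR p under 0.05), as were all 8 macrophage markers (median 0.84, 1 with such a p), and without bexarotene replicate 1 these medians were 0.89 and -0.23, with 0 such p in either list. All 7 milk protein and secretory genes were lower (median -1.01, 4 with an edgeR p under 0.05), with sums of 26430 to 62613 CPM against 41290 to 75000 CPM in controls. Without bexarotene replicate 1, 5 of the 7 were lower (median -0.93, 2 with such a p), while 19 of 20 sterol genes were higher (median 0.36). With MSU-42011 against control, all 7 secretory genes (median -0.42) and all 8 luminal markers (median -0.21) were lower, 0 with such a p. The part of these markers in the sterol gene values was not tested.

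In the fatty acid branch, 9 of 12 genes were higher with bexarotene, with a median log2 fold change of 0.23. Acsl3 was the single gene of the set with an unadjusted edgeR p under 0.05 (0.50 ± 0.20 SE, 95% confidence interval 0.066 to 0.94, p = 0.0273, adjusted p = 0.762), and its exact permutation p was 0.0571. Of all genes tested, 6.44% had an unadjusted edgeR p under 0.05 in this comparison. Acsl3 shares 244 exon bases with Utp14b on the same strand. Fasn was at 0.55 ± 0.28 SE (edgeR adjusted p = 0.810), Elovl6 at 0.54 ± 0.29 SE (adjusted p = 0.821), Acaca at 0.39 ± 0.22 SE (adjusted p = 0.843) and Acacb at 0.32 ± 0.19 SE (adjusted p = 0.858). Me1 (-0.14), Elovl5 (-0.038) and Fads1 (-0.31) had values below 0.

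These values depended on single tumors. The sterol median fell to 0.18 without control replicate 1, with 16 of 20 genes higher, to 0.12 without control replicate 2, with 15 of 20 higher, and to 0.17 without bexarotene replicate 4, with 16 of 20 higher. Without control replicate 3, the sterol median was 0.56 and 11 of 20 sterol genes had an edgeR p under 0.05, all higher, where 4.23% of the genes tested were higher with such a p. They were Hmgcs1, Mvk, Pmvk, Idi1, Lss, Cyp51, Tm7sf2, Dhcr7, Insig1, Srebf2 and Stard4, and each had an adjusted p of 0.745. Insig1 was then at 1.69. Acacb, Elovl6 and Fasn also had a p under 0.05 in that fit. Without bexarotene replicate 1, the tumor with the high fibroblast and macrophage markers, 2 sterol genes (Insig1 at 1.26 and Dhcr7 at 0.51) and 4 fatty acid genes (Acsl3 at 0.65, Fasn at 0.76, Elovl6 at 0.67 and Acaca at 0.56) had an edgeR p under 0.05, where 1.6% of the genes tested were higher with such a p, and each adjusted p was 0.978. The fatty acid median was 0.030 without bexarotene replicate 4, 0.11 without control replicate 1, 0.35 without control replicate 3 and 0.38 without bexarotene replicate 1.

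**Figure D4:**
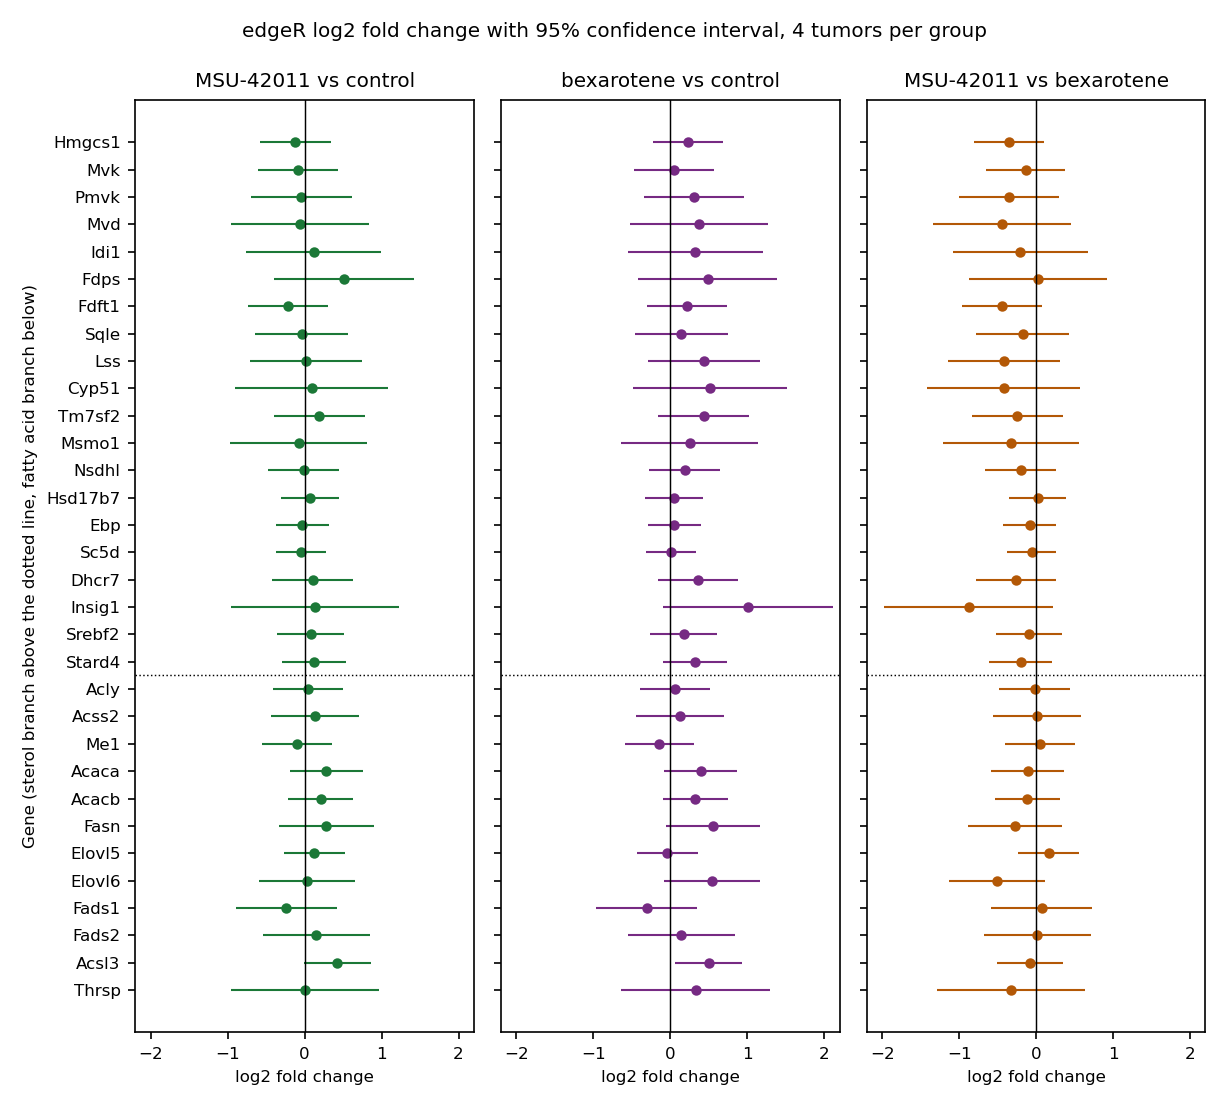
Log2 fold change from edgeR with its 95% confidence interval for each gene, in the 3 comparisons, with sterol genes above and fatty acid genes below the dotted line. With bexarotene the sterol points lie right of 0, while nearly every interval in all panels crosses 0, Acsl3 with bexarotene being the exception.

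The RXR agonists were then compared directly at the same dose and time. This was 1 pair of compounds, tested over all 15504 genes with p-values adjusted over them. Of the sterol genes, 18 of 20 were lower with MSU-42011 than with bexarotene, with a median log2 difference of -0.22, where 54.9% of all genes tested were lower and their median was -0.024. In the fatty acid branch 7 of 12 were lower, with a median of -0.049. In edgeR, 0 members had a p under 0.05 (3.95% of the tested genes did), 0 passed an adjusted p of 0.05 (0%), and 0 members had groups that did not overlap (1.17%). Insig1 differed most (-0.88, 95% confidence interval -1.97 to 0.22, adjusted p = 0.997). Elovl6 differed by -0.50 (-1.13 to 0.12), Fdft1 by -0.44 (-0.96 to 0.081) and Hmgcs1 by -0.35 (-0.81 to 0.11). Pmvk (-0.35) and Lss (-0.42) were lower by like amounts, and Fasn differed by -0.27 (-0.88 to 0.34). These intervals do not show that the agonists act alike: for Insig1 they allow a level up to 1.97 log2 units lower with MSU-42011, and for Acly a difference of -0.48 to 0.44. Without bexarotene replicate 4, 16 of 20 sterol genes were lower with MSU-42011 and the median was -0.12, and the fatty acid median turned to 0.11, with 4 of 12 lower. Without bexarotene replicate 1, all 20 sterol genes were lower with MSU-42011, the median was -0.36, and Fdft1 and Insig1 had an edgeR p under 0.05, where 1.47% of the genes tested were lower with such a p, each with an adjusted p of 0.939. In the same fit 10 of 12 fatty acid genes were lower and Elovl6 also had a p under 0.05.

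Relations between genes across the 12 tumors were tested for 6 pairs on the log2 scale, 3 of them among 4 sterol genes. Hmgcs1 and Insig1 had a Pearson r of 0.891 (adjusted permutation p = 3e-04) and a Spearman rho of 0.860 (adjusted permutation p = 0.0036). Hmgcs1 and Sqle had r = 0.817 (adjusted permutation p = 0.00306) and rho = 0.790 (0.00981), and Srebf2 and Hmgcs1 had r = 0.781 (adjusted permutation p = 0.00574) and rho = 0.741 (0.0153). Unadjusted, the permutation p of these r was 5e-05, 0.00102 and 0.00287, and of the rho 6e-04, 0.00327 and 0.00763. Without the 2 tumors farthest from the median, r was 0.880, 0.748 and 0.724, and with the group means removed it was 0.903, 0.840 and 0.813. These 3 relations thus held with the differences between diets taken out. All values of a tumor share a library and its scaling.

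Across the branches 1 pair was tested, and its r was not compared with the others by a test. Hmgcs1 and Fasn had r = 0.687 (permutation p = 0.0142, adjusted 0.0179) but rho = 0.510 (permutation p = 0.0930, adjusted 0.112). Without the 2 farthest tumors, r was 0.683. Fasn and Acly had r = 0.681 (permutation p = 0.0149, adjusted 0.0179) and rho = 0.664 (permutation p = 0.0220, adjusted 0.0330). Without bexarotene replicates 2 and 4, the tumors farthest from the median of Fasn, r was lower at 0.458 (permutation p = 0.182, n = 10). With the group means removed, r was 0.721 for Fasn and Acly and 0.701 for Hmgcs1 and Fasn. Fasn and the fat droplet gene Plin1 had r = -0.337 (permutation p = 0.288) and rho = -0.055 (permutation p = 0.872), with Plin1 between 0 and 2.32 CPM. Without bexarotene replicate 1 the r of Fasn with Plin1 was 0.016, and the r of the other relations was 0.646 or more.

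**Figure D5:**
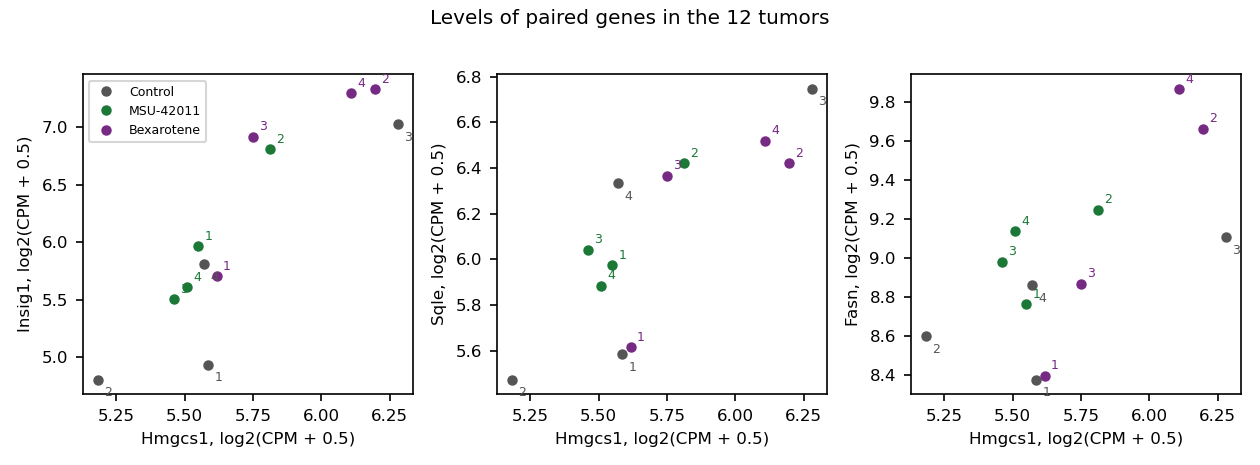
Log2(CPM + 0.5) of Hmgcs1 (horizontal) against Insig1, Sqle and Fasn (vertical) in the 12 tumors, colored by diet and numbered by replicate. Insig1 (r = 0.891), Sqle (r = 0.817) and Fasn (r = 0.687) are higher in tumors with more Hmgcs1.

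Among other genes of the pathway, all 12 SREBP regulators, partners and targets listed outside the set passed the filter, and 0 of the 12 had an edgeR p under 0.05 in any of the 3 comparisons. Srebf1 was the most abundant of those described here, at 1757, 2504, 2017 and 2356 CPM in controls, 1914, 2127, 3545 and 2509 CPM with MSU-42011, and 1422, 3183, 2545 and 3533 CPM with bexarotene. Its log2 fold change was 0.23 ± 0.28 SE with MSU-42011 and 0.31 ± 0.28 SE with bexarotene, with overlapping groups in both. Scap, the escort protein of SREBP, differed by -0.16 ± 0.13 SE with bexarotene.

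Of 23 further lipid synthesis genes, 22 passed the filter. With bexarotene, 13 of these 22 (59.1%) were higher (median 0.077), near the 55.3% of all genes tested, and 2 had an edgeR p under 0.05, as 6.44% of all genes did. Mid1ip1, the partner of Thrsp that activates acetyl-CoA carboxylase, was at 11.8, 8.05, 18.9 and 16.5 CPM in controls, 13.2, 22.2, 11.7 and 10.7 CPM with MSU-42011, and 21.9, 31.4, 24.1 and 28.4 CPM with bexarotene. Every bexarotene tumor was above every control tumor, and it was the only 1 of the 22 without overlap, as for 2.03% of all genes tested. The log2 fold change of Mid1ip1 was 0.94 ± 0.28 SE (edgeR p = 0.00617, adjusted p = 0.762), with an exact permutation p of 0.0286. Between the agonists it was -0.87 ± 0.28 SE with MSU-42011 against bexarotene (edgeR p = 0.00936, adjusted p = 0.997, exact permutation p = 0.0571). In that comparison 2 of the 22 had an edgeR p under 0.05, as 3.95% of all genes did. Mid1ip1 was lower with MSU-42011 and 1 other gene was higher. Scd2, a stearoyl-CoA desaturase, was at 578, 372, 830 and 772 CPM in controls and at 482, 1024, 1114 and 1455 CPM with bexarotene, a log2 fold change of 0.67 ± 0.31 SE (edgeR p = 0.0485, adjusted p = 0.773, exact permutation p = 0.171). With MSU-42011, 11 of the 22 were higher (50.3% of all genes) and 0 had an edgeR p under 0.05 (1.99% of all genes).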

How the data were processed

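RNA from 12 mammary tumors (4 per diet) was enriched for poly(A) RNA and sequenced. The authors deposited a table of raw read counts per gene and a table of FPKM values, which equal the counts scaled by depth and a fixed length per gene (within 1% for all 16853 genes checked). The submitters' processing notes name STAR 2.6.1d, featureCounts 1.5.0-p3 and DESeq2. The strand setting is not given in the sources used here, and gene coordinates matched GENCODE M21 (GRCm38) for 98.0% of genes. Within the set, those of Tm7sf2, Fads1 and Fads2 did not match.

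Samples were grouped by their labels. Counts were filtered to 15504 genes (edgeR filterByExpr, minimum count 10), scaled by TMM and tested with edgeR's quasi-likelihood test over all 3 groups, with Benjamini-Hochberg adjustment over all genes (edgeR 4.0.16, limma 3.58.1, DESeq2 1.42.0, R 4.3.3). CPM are TMM scaled, and a log2 scale has 0.5 CPM added. Exact permutation tests used all 70 splits of 4 against 4 tumors, and correlations 100000 permutations. Depths are those in the report. The fitting code was tested on simulated data.

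The 32 genes and all gene lists were chosen with earlier results of these data known. In each branch and comparison the 5 genes with the smallest p were named, with Hmgcs1, Sqle, Insig1, Srebf2, Acly, Acaca, Fasn and Thrsp in any case, and other genes were named after their values were seen. Some genes are not reported here. Alternatives were other scalings, filters and tools, a replicate block, and leaving out each tumor.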

Additional observations from a re-analysis of the deposited data

Results flagged for a closer look

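In 5 of the 102 sets of 4 tumors tested (each of the 32 genes and each branch median, in each diet), 1 tumor lay far from the other 3 (Dixon's ratio above its 95% critical value). Chance alone flags about 1 set in 20. In bexarotene replicate 1, Fdft1 was at 31.1 CPM (the other 3 at 49.8 to 53.8 CPM) and Sqle at 48.5 CPM (the other 3 at 82.0 to 91.3 CPM). This was the tumor with 10450 CPM of fibroblast markers, and the part of those markers was not tested. Nsdhl, a sterol dehydrogenase, was at 46.8 CPM in MSU-42011 replicate 2 (the other 3 at 34.9 to 36.2 CPM), and Dhcr7 was at 90.9 CPM in MSU-42011 replicate 3 (the other 3 at 125 to 131 CPM). Acsl3 was at 33.9 CPM in control replicate 2 (the other 3 at 23.4 to 24.1 CPM).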

How the results depend on the processing

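No gene of the set passed an adjusted p of 0.05 under any alternative run, the smallest adjusted p being 0.473. Fdps had the fewest reads of the set (479 in all, at 16583413 to 25925027 reads per tumor), so counting error weighed most on it. Over all genes, edgeR made 0 calls, and DESeq2 made 1 (MSU-42011 and control), 6 (bexarotene and control), 4 (the agonists) and 5 (3 groups). Leaving out a tumor gave 0 to 1 calls for bexarotene against control and for the 3 groups, the 1 without MSU-42011 replicate 2. Replicate numbers do not pair the tumors (correlations of same-numbered deviations from -0.35 to 0.35). With the replicate block, 2 fatty acid genes had p under 0.05 for bexarotene against control instead of 1, where 711 of 15504 genes had such a p. For MSU-42011 relative to control, Pmvk (0.046), Sqle (0.033) and Thrsp (-0.088) changed sign with the block.

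For MSU-42011 against control, 18 of 20 sterol genes were higher with limma on log2 FPKM in all 3 forms, instead of 10. FPKM are not TMM scaled, and the median log2 fold change over all genes rose as well. It was 0.0016 in edgeR and 0.050, 0.061 and 0.051 in the 3 limma forms. The sterol median was 0.0035 in edgeR and reached 0.15 among the alternatives other than leaving out a tumor. The part of the scaling in the count of 18 was not tested. When a tumor was left out, 2 to 19 sterol genes were higher (19 without control replicate 3, 3 without control replicate 1, 2 without control replicate 2). Without a tumor, sterol genes with p under 0.05 numbered 0 to 3 (3 without control replicate 3) and fatty acid genes 0 to 2 (2 without bexarotene replicate 4, 1 without control replicates 2 or 3, MSU-42011 replicate 2 or bexarotene replicate 1). Fatty acid genes with p under 0.05 numbered 1 with no filter, 2 when only the groups compared were fitted and 1 with limma in its 3 forms. Of all genes, 667 of 29907 had such a p with no filter and 393 of 14779 with only the groups compared. With limma it was 358 of 15504, 364 of 15504 and 300 of 13487, and without a tumor 184 of 15938 to 680 of 15933. For bexarotene against control, 1 sterol gene had p under 0.05 with no filter, with DESeq2 and with limma in its 3 forms, and 0 to 11 without a tumor (11 without control replicate 3, 2 without bexarotene replicate 1). Fatty acid genes numbered 0 to 4 (4 without bexarotene replicate 1, 3 without control replicate 3, 0 without control replicates 1 or 4 or bexarotene replicate 4), and their median was 0.030 to 0.38 (0.030 without bexarotene replicate 4). Of all genes, 1866 of 29907 had p under 0.05 with no filter and 1096 of 15504 with DESeq2. With limma it was 559 of 15504, 570 of 15504 and 448 of 13487, and without a tumor 523 of 15619 to 1600 of 15777. Between the agonists, fitting only their groups gave 1 gene in each branch. Leaving out a tumor gave 0 to 2 sterol genes (2 without control replicate 3, MSU-42011 replicate 2 or bexarotene replicate 1), 0 to 1 fatty acid genes (1 without bexarotene replicate 1) and 4 to 10 fatty acid genes lower (4 without bexarotene replicate 4). Of all genes, 413 of 15002 had p under 0.05 when only the agonist groups were fitted, and 433 of 15938 to 1242 of 15777 without a tumor. The counts of genes higher or lower were added as alternatives after seeing the data.

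Of 60 values of named genes, 24 changed sign under some alternative. With limma, for MSU-42011 against control, Pmvk was at 0.12, 0.13 and 0.12 and Sqle at 0.10, 0.11 and 0.10, and between the agonists Acly was at 0.042, 0.043 and 0.042. In these limma fits the median over all genes was also higher than in edgeR, in both comparisons. When only the groups compared were fitted, Thrsp was at -0.000814. Leaving out a tumor for MSU-42011 against control moved Hmgcs1 from -0.26 to 0.13, Pmvk from -0.22 to 0.37, Fdft1 from -0.39 to 0.0054, Sqle from -0.20 to 0.25, Lss from -0.19 to 0.37, Dhcr7 from -0.035 to 0.30, Insig1 from -0.24 to 0.82, Srebf2 from -0.037 to 0.30, Stard4 from -0.014 to 0.36, Acly from -0.042 to 0.24, Elovl5 from -0.028 to 0.23, Elovl6 from -0.15 to 0.32, Fads1 from -0.41 to 0.23 and Thrsp from -0.36 to 0.28. For bexarotene against control it moved Sqle from -0.029 to 0.42, Acly from -0.14 to 0.26, Elovl5 from -0.17 to 0.062 and Fads1 from -0.48 to 0.15. Between the agonists it moved Fdps from -0.19 to 0.24, Acly from -0.14 to 0.18, Acaca from -0.28 to 0.21, Acacb from -0.21 to 0.013, Fads1 from -0.10 to 0.18 and Acsl3 from -0.23 to 0.074. The cause of these changes, beyond the tumor left out, was not tested.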
